A study of Drosophila melanogaster with 2 samples.

Results

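Sod1, Sod2, Cat, Keap1, Gclc, Gclm, GstS1 and GstD1 are genes of the antioxidant defence and of glutathione synthesis, and they were taken as a named set of 8 among 18164 annotated genes, of which 13945 are protein-coding. For each gene every peak with its summit in the gene body or within 2 kb of it was collected. The peaks mark where CG33017 fused to GFP was enriched in chromatin. The samples were whole adult male Drosophila melanogaster of unknown age, and the transgenic line carries the GFP at the C-terminus of CG33017. Precipitation was with an antibody to GFP, per the labels' description, after sonication to fragments of 200 to 800 bp. There were 2 biological replicates, numbered 1 and 2 in the labels, and both belong to 1 group, so no condition was compared with another. All tissues of the fly were mixed, and a site used in a few cell types could not be told apart from a weak site used in many. An untagged line was not analysed here.

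The set follows a chain of reactions. Superoxide dismutases turn superoxide into hydrogen peroxide, and catalase breaks hydrogen peroxide down. Glutamate-cysteine ligase carries out the rate-limiting step of glutathione synthesis, and glutathione S-transferases attach glutathione to reactive compounds. Keap1 holds back CncC, the fly counterpart of Nrf2, which activates many of these genes through a DNA sequence called the antioxidant response element.

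Peaks were used from 4 lists. The list filtered on the irreproducible discovery rate (IDR), a measure of how well replicates rank the same peaks, held 4867 peaks with signals from 105.1 to 3404. The pooled list and each replicate list held 30000 peaks. All 4867 IDR peaks were in the pooled list, where their lowest rank was 4867. The IDR list thus held the 4867 strongest pooled peaks, and a peak outside it was one of lower pooled rank. A peak's signal is a value given by the authors and ranks peaks within a list only, rank 1 being the strongest. The number of reads behind the lists is unknown. An offset is the summit's distance from a transcription start site (TSS), negative when upstream.

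The sequences around 5 of the IDR summits are printed below as chosen examples, and they do not stand for the other sites. They were read from the NCBI sequence of the BDGP6 (dm6) assembly, 5′ to 3′ on the strand of the named gene, with the summit at base 76 of 151. The Cat and GstD1 sites are shown for their GA-rich repeats, the Keap1 sites for the stretch between the starts of Keap1 and its neighbour and for its strongest peak, and the Gclc site as the strongest peak inside that gene. Capitals mark matches to GAGAGAG on either strand, so CTCTCTC is the same match read from the other strand. Cat, intron 300 bp downstream of the TSS, is chr3L:18822829-18822979 on the plus strand. The others are on the minus strand. GstD1, 79 bp upstream, is chr3R:12369272-12369422. Keap1, 85 bp upstream, is chr3R:17079955-17080105, and Keap1, 911 bp upstream, is chr3R:17080781-17080931. Gclc, intron, is chrX:8113522-8113672.
Cat 300 bp downstream: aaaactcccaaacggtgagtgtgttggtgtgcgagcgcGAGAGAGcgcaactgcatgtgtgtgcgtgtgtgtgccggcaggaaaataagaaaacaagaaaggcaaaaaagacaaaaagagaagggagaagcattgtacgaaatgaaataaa
GstD1 79 bp upstream: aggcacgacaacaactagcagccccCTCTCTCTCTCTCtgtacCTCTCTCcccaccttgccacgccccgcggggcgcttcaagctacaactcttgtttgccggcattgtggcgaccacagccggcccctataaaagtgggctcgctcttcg
Keap1 85 bp upstream: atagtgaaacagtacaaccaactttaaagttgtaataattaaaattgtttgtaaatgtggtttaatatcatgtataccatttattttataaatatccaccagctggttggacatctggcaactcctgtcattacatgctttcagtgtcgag
Keap1 911 bp upstream: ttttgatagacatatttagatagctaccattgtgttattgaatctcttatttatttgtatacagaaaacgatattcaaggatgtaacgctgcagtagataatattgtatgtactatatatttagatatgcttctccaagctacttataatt
Gclc intron: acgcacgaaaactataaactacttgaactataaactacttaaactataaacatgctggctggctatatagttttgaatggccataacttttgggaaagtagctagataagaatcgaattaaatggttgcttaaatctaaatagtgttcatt
The Cat stretch opens with the last bases of the first exon and runs on into the intron. None of the 3 lower stretches held a match to any of the 7 consensus sequences searched.

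Peaks were found at each of the 8 genes, but their strength and place varied. In the IDR list 6 of the 8 (75%) had a summit no more than 500 bp from a TSS of their own: Sod2, Cat, Keap1, Gclm, GstS1 and GstD1. Over all protein-coding genes the share was 23.8%. Counted over the gene body and 2 kb around it, 7 of 8 members (87.5%) had an IDR summit, against 39.1% of all protein-coding genes and 42.5% of those within the members' range of length, 1131 to 13967 bp. Sod1 was the member without one. In the less strict lists all 8 members had a summit in or within 2 kb of the gene, which was so for 80.3% of protein-coding genes in the pooled list, 78.5% in replicate 1 and 80.5% in replicate 2. All 8 also had a pooled summit within 500 bp of a TSS, against 61.3% of protein-coding genes. In the less strict lists most other genes had a peak too. The genes were chosen with earlier results of these data known, and these shares are given as descriptions with no test.

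**Figure D1:**
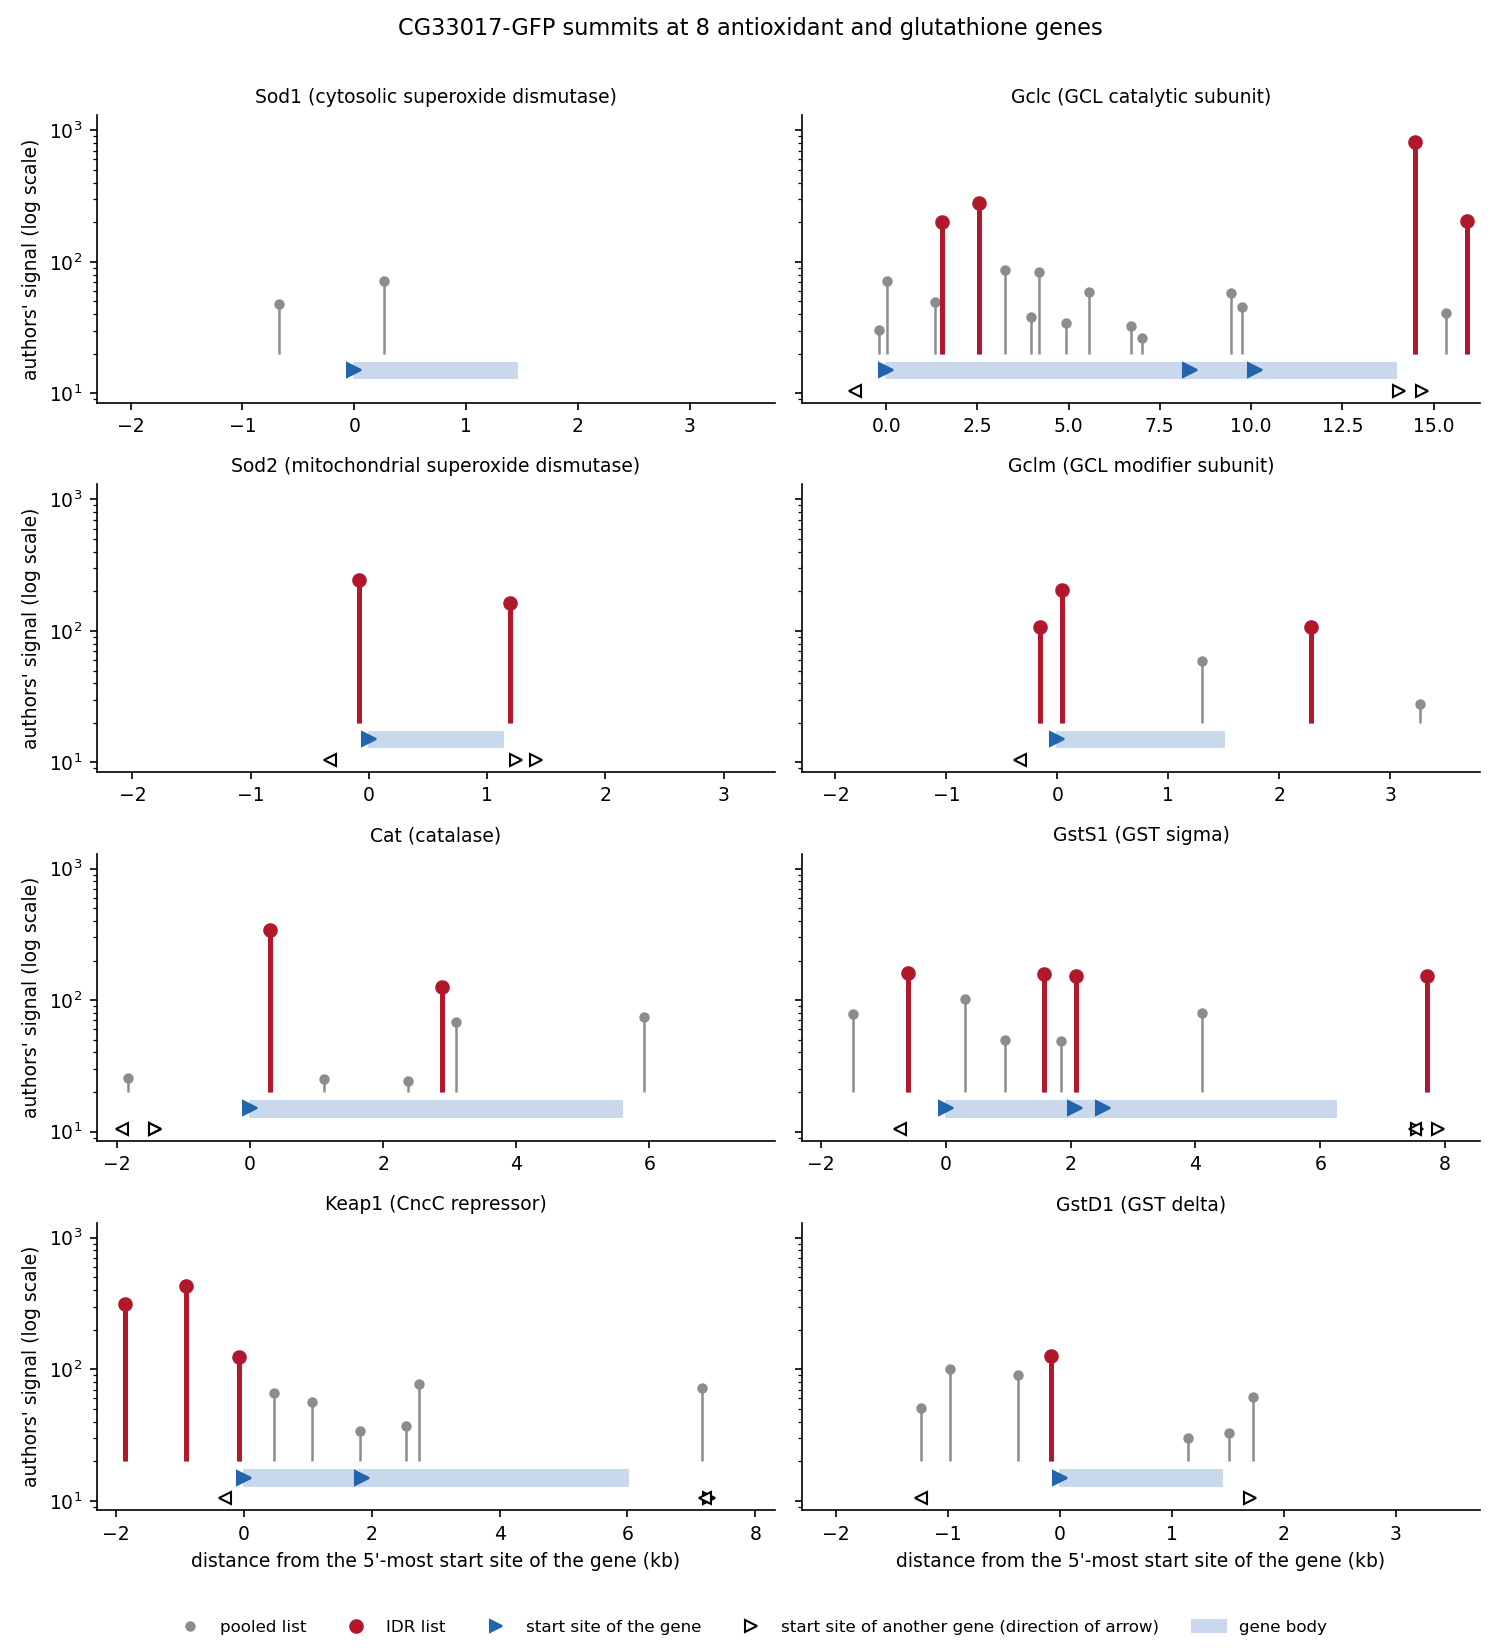
Summits along each of the 8 genes, with the distance in kb from the gene's first TSS on the x axis, read in the direction of transcription, and the authors' signal on a log y axis. Red stems are IDR summits, grey stems other pooled summits, the bar is the gene body, and arrows are start sites of the gene (filled) and of other genes (open). Sod1 has no IDR summit, and Gclc has 4, the strongest beyond its 3′ end.

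Peaks were dense in the regions searched, the gene bodies with 2 kb each side, and 7 of the 19 IDR summits lay in a body. The 8 genes with their flanks held 19 IDR summits and 58 pooled summits, and the replicate lists held 67 (replicate 1) and 62 (replicate 2). The median member had 8.89 pooled summits per 10 kb, against a median of 3.25 over protein-coding genes, whose upper quartile was 5.51. Sod1, with 3.66, and Sod2, with 3.90, were nearer the median of all genes, and GstD1 was densest with 12.8. For IDR summits the medians were 2.61 per 10 kb in the members and 0 over protein-coding genes. Gclc and GstS1 had 4 IDR summits each, a number reached by 2.37% of protein-coding genes of any length. Per 10 kb this was 2.23 at Gclc, the longest member, and 3.90 at GstS1. At both genes some of these summits lay by start sites of other genes.

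The superoxide dismutases differed from each other. Sod1 encodes the copper-zinc enzyme of the cytosol and lies at 11112281 to 11113740 on the minus strand of 3L. Its strongest pooled summit, 270 bp downstream of the TSS in an intron, had a signal of 71.9 and rank 8110, outside the IDR list. Replicate 1 placed its strongest summit at 336 bp downstream with rank 5781, and replicate 2 placed it 672 bp upstream with rank 8858, so the replicates did not give the same best site. A pooled summit at least as strong was present at 51.3% of protein-coding genes, which puts Sod1 near the middle. Sod2 encodes the manganese enzyme of mitochondria and lies at 16772785 to 16773915 on the minus strand of 2R. It had IDR summits on both sides of its short body. The upstream one, 85 bp before the TSS, had a signal of 243.4 and rank 1285, with rank 1340 (signal 124.7) in replicate 1 and 1206 (signal 128.0) in replicate 2. The other, 67 bp past the 3′ end, had a signal of 162.5 and rank 2513, with ranks 3018 in replicate 1 and 2473 in replicate 2. The replicates placed both Sod2 peaks alike in rank. That second summit lay 47 bp upstream of a start site of unc-104, which encodes a kinesin motor, so the peak cannot be given to Sod2 alone.

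Cat, the catalase gene, had the strongest IDR summit within 500 bp of a member's own start site. The gene lies at 18822604 to 18828188 on the plus strand of 3L. The summit at 18822904, 300 bp into the gene and in its first intron, had a signal of 342.5 and rank 725. It ranked 500 (signal 223.2) in replicate 1 and 1476 (signal 115.2) in replicate 2, among the larger gaps between replicates in the set. A second IDR summit lay in an intron 2888 bp downstream of the TSS, with a signal of 126.7 and ranks of 3689 in the pooled list, 3153 in replicate 1 and 4873 in replicate 2. Both Cat peaks ranked higher in replicate 1.

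**Figure D2:**
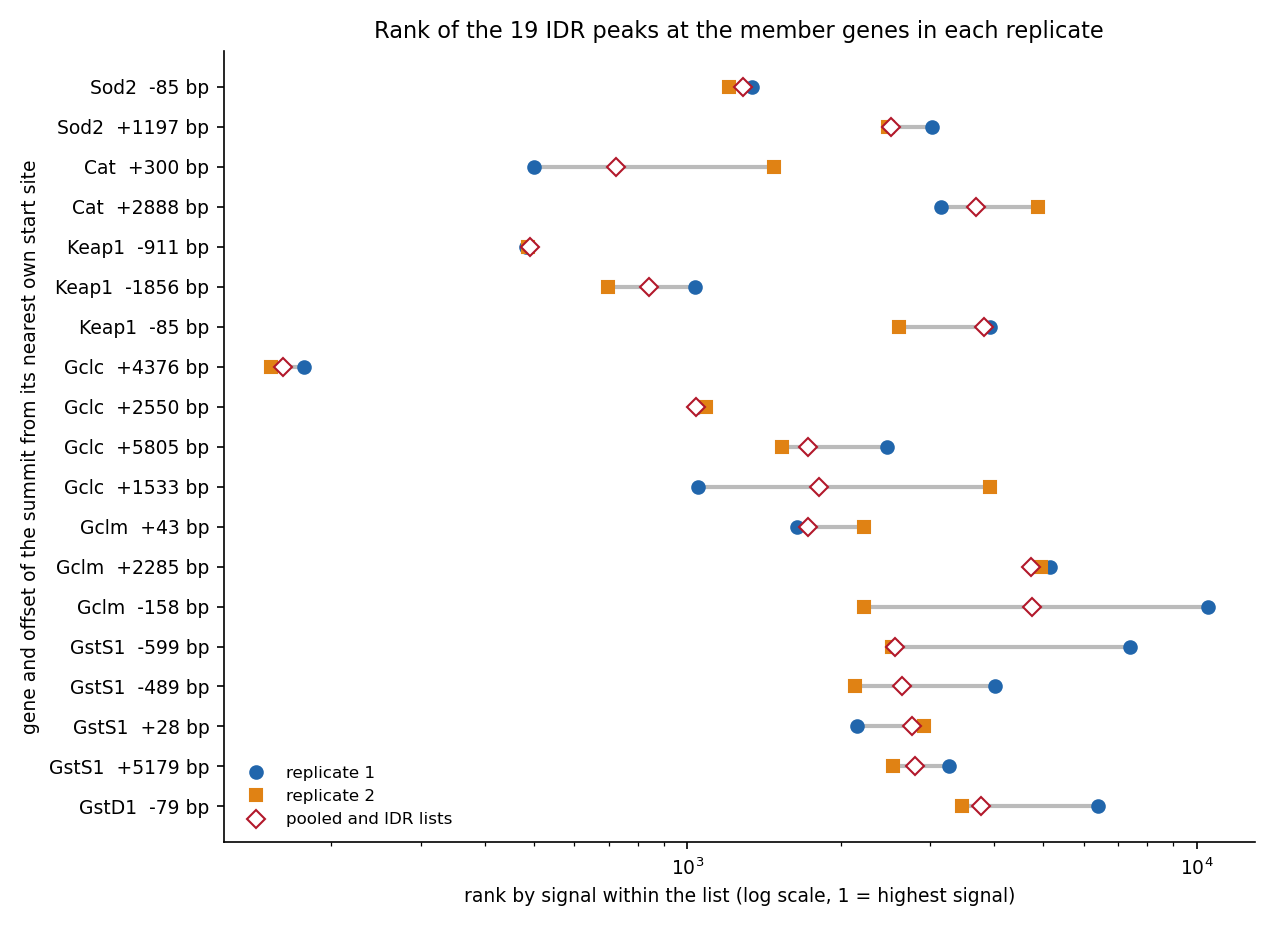
Rank of the 19 member IDR peaks in replicate 1 (circles), replicate 2 (squares) and the pooled and IDR lists (diamonds), on a log x axis with rank 1 as the strongest. Each row is a peak with its offset from the nearest own start site, and Sod1, without an IDR peak, has no row. The strongest Gclc peak is at rank 161, and the lines are longest at the Gclm peak at -158 bp and the Gclc peak 1533 bp downstream. The Gclm peaks at -158 bp and 43 bp were matched to the same replicate 2 peak.

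The catalytic and the modifier subunit of glutamate-cysteine ligase stood in different positions. Gclc, the catalytic subunit, is the longest member, at 8102181 to 8116147 on the minus strand of X. It had the strongest peak of the set, with a signal of 809.8 and rank 161, and ranks of 177 (signal 401.3) in replicate 1 and 152 (signal 404.8) in replicate 2. The replicates placed it almost alike. That summit, at 8101666, lay 515 bp past the 3′ end of Gclc and inside the 5′ UTR of CG2258, between start sites of CG2258 at 212 bp downstream and 429 bp upstream of it. A further IDR summit, 1944 bp past the 3′ end with a signal of 205.1 and rank 1722, lay 166 bp upstream of another CG2258 start site. The strength recorded for Gclc by the 2 kb rule is therefore that of a peak at the neighbouring gene's start.

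Within Gclc itself the IDR summits were intronic. The one 2550 bp downstream of the nearest TSS had a signal of 278.8 and rank 1039, with ranks 1046 in replicate 1 and 1086 in replicate 2. The one 1533 bp downstream had a signal of 199.6 and rank 1814, but ranked 1051 in replicate 1 and 3932 in replicate 2. At the canonical start site, the one farthest upstream, no IDR summit was found. The pooled list had one 18 bp downstream with a signal of 71.2 and rank 8203, and the replicate lists had it at 58 bp downstream (rank 6280, replicate 1) and 22 bp downstream (rank 10346, replicate 2). Both replicates had a peak over the Gclc promoter, at low rank.

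Gclm, the modifier subunit, had its peaks at the promoter. The gene lies at 22685006 to 22686510 on the minus strand of 3R. The strongest summit was in the 5′ UTR, 43 bp downstream of the TSS, with a signal of 204.7 and rank 1726, and with ranks of 1642 (signal 110.9) in replicate 1 and 2218 (signal 90.0) in replicate 2. A second IDR summit 158 bp upstream had a signal of 106.7 and rank 4756. Replicate 1 ranked it 10520, and in replicate 2 the nearest overlapping peak was the same one that matched the downstream summit. The intervals of these 2 peaks overlap. The remaining one lay 781 bp past the 3′ end with a signal of 107.0 and rank 4738, near the lowest signal of the IDR list. CG17625 starts on the opposite strand 339 bp from Gclm, and both promoter summits lay within 500 bp of it too.

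By the 2 kb rule the glutathione S-transferase genes had the weakest best peaks of the 7 members with an IDR peak. Their pooled ranks were 2558 at GstS1 and 3768 at GstD1. Within 500 bp of an own start site the order differed. There the best pooled ranks were 2639 at GstS1, 3768 at GstD1, 3830 at Keap1 and 8203 at Gclc, while Sod2, Cat and Gclm remained stronger. GstS1, a sigma-class enzyme, lies at 17093246 to 17099501 on the minus strand of 2R and has 3 start sites. Its 4 IDR summits were nearly equal, with signals of 161.0, 157.7, 152.8 and 151.3. Those of 157.7 and 152.8 lay at an internal promoter, 489 bp upstream and 28 bp downstream of the start site of transcript RB. The one 28 bp downstream, in the 5′ UTR, ranked 2154 in replicate 1, where it was the strongest of the gene, and 2918 in replicate 2. The one 489 bp upstream ranked 4012 in replicate 1 and 2136 in replicate 2. The strongest, 599 bp upstream of the first start site, ranked 7403 in replicate 1 and 2520 in replicate 2, and it lay 141 bp upstream of CG46491. The last lay 1448 bp past the 3′ end, within 500 bp of start sites of Sply, a sphingosine phosphate lyase gene, and of CG6984. At the canonical start site of GstS1 the nearest pooled summit was 301 bp downstream with a signal of 101.2 and rank 5143, outside the IDR list.

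GstD1, a delta-class enzyme widely used as a readout of CncC activity in the fly, had 1 IDR summit. The gene lies at 12367817 to 12369268 on the minus strand of 3R. The summit, 79 bp upstream, had a signal of 125.1 and rank 3768. It ranked 6391 (signal 46.5) in replicate 1 and 3455 (signal 68.5) in replicate 2, so in replicate 1 it was outside the top 4867. The summit of the matching peak lay 53 bp upstream in replicate 1 and 210 bp upstream in replicate 2. In replicate 1 the strongest GstD1 summit was another, 969 bp upstream with rank 2651, and it ranked 9820 in replicate 2. It matched a pooled peak 983 bp upstream with a signal of 100.8 and rank 5179. That pooled summit lay nearer to another gene, 256 bp upstream of the start of lncRNA:CR46015 on the opposite strand. GstD1 belongs to a cluster of 11 GstD genes over 20849 bp at 12364776 to 12385624 on 3R, and the summit 79 bp upstream of GstD1 was the only IDR peak of the cluster. It also fell within 2 kb of the neighbour GstD9. By the 2 kb rule the best pooled rank at other genes of the cluster was often that of a peak at a neighbour. It was 5179 at GstD2, from the peak 983 bp upstream of GstD1. At GstD10 it was 9842, from a peak 21 bp downstream of the GstD9 start. GstD3 to GstD6 shared a peak of rank 14173, 46 bp upstream of the GstD5 start. GstD7 and GstD8 shared a peak of rank 14239, 759 bp downstream of the GstD8 start. At GstD11 the best rank was 26676.

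Keap1, the repressor of CncC, lies at 17073942 to 17079945 on the minus strand of 3R. Its strongest summit, 911 bp upstream of the nearest TSS, had a signal of 431.5 and rank 491, with ranks 483 (signal 226.7) in replicate 1 and 486 (signal 218.1) in replicate 2. This was the closest pair of replicate ranks among the 19 peaks. The summit lay in an intron of kuk, which encodes a nuclear envelope protein and starts on the opposite strand 299 bp from Keap1. A second summit in kuk, 1856 bp upstream of Keap1 and 145 bp upstream of a kuk start site, had a signal of 313.8 and rank 840, with ranks 1037 in replicate 1 and 698 in replicate 2. The one between the 2 genes, 85 bp upstream of Keap1 and 214 bp upstream of kuk, was weaker, with a signal of 123.9 and rank 3830. The matching peaks ranked 3921 in replicate 1 and 2602 in replicate 2. Replicate 1 placed the summit 30 bp downstream of the Keap1 TSS, in the 5′ UTR, and replicate 2 placed it 64 bp upstream. At the canonical start site of Keap1, which lies inside the gene, the pooled list had a summit 26 bp upstream with a signal of 33.7 and rank 19448, and the IDR list had none.

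Many of these sites lay beside start sites of other genes. Of the 19 member IDR summits, 14 (73.7%) lay within 500 bp of a start site of any gene, against 61.0% of all IDR summits. Of the 14, 8 lay by the member's own start site, 4 of these by another gene's as well, and 6 by another gene's only. Sod2, Keap1 and Gclm each start close to an opposite gene, Arp53D at 331 bp, kuk at 299 bp and CG17625 at 339 bp, and the 2 genes of such a pair cannot be told apart by a summit between them. The 5 remaining summits were the second Cat summit, the strongest Keap1 summit, the intronic Gclc pair and the one downstream of Gclm.

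By annotation, 9 of the 19 summits were intronic, 7 intergenic and 3 in a 5′ UTR. Over all IDR summits 45.7% were intronic, 33.4% intergenic and 15.7% in a 5′ UTR. None of the 19 lay in coding sequence or a 3′ UTR, classes that held 0.575% and 2.01% of all IDR summits. GC content over 50 bp each side had a median of 30.7% at the member summits and 34.7% at all IDR summits. The quartiles of all IDR summits were 26.7% and 43.6%. The members ran from 20.8% at the Sod2 promoter to 63.4% at the GstD1 promoter, within the full range of all IDR summits, 8.91% to 69.3%.

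The replicate ranks of the member peaks were about as close as those of other peaks, while their summits lay farther apart. All 19 member IDR peaks overlapped a peak in each replicate list. The median size of the log2 ratio of the replicate ranks was 0.57 at the members and 0.57 over the 4859 IDR peaks found in both replicates. It ran from 0.0089 at the strongest Keap1 peak to 2.25 at the upstream Gclm peak. That Gclm peak was matched in replicate 2 to the peak that also matched the downstream Gclm summit. Of the 19 peaks, 14 were within the top 4867 of both replicates (73.7%), against 71.9% of all IDR peaks. Of the same 19, 12 ranked higher in replicate 2. That share was not taken over all IDR peaks, so it does not set the members apart. Summits in the replicates lay a median of 59 bp apart at the members and 30 bp apart over all IDR peaks.

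**Figure D3:**
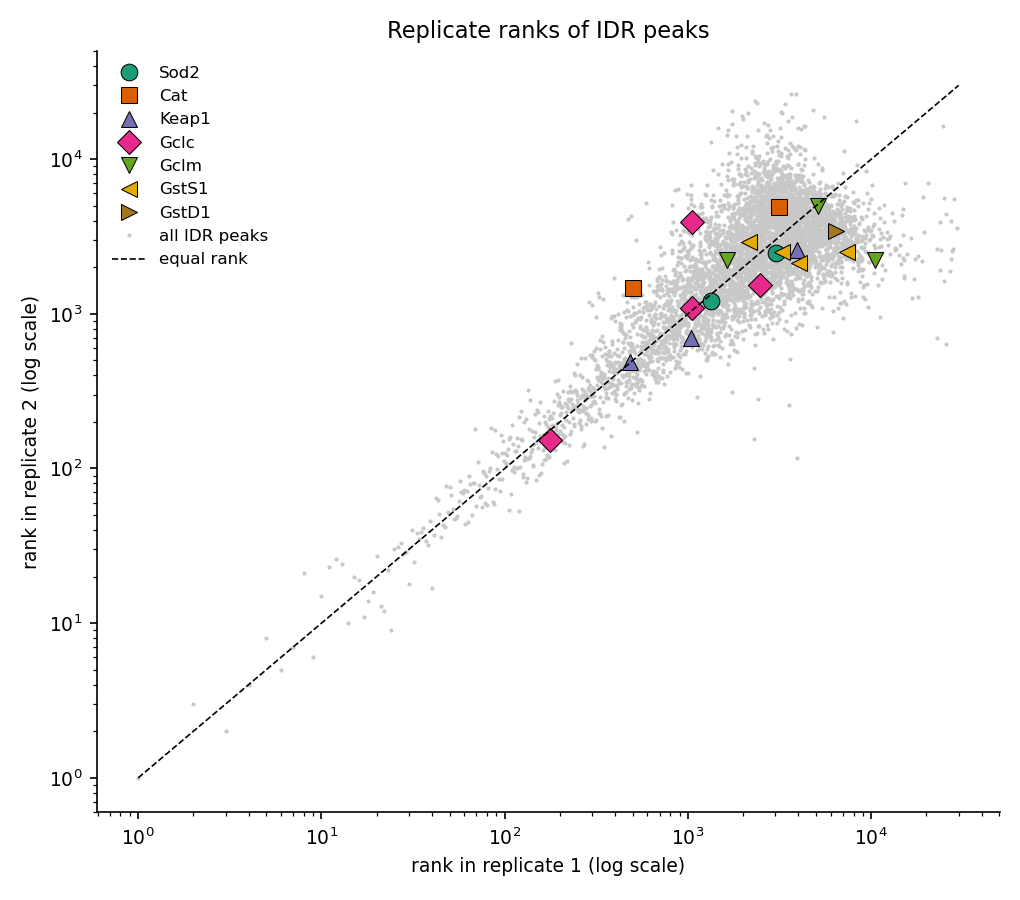
Rank in replicate 1 against rank in replicate 2 for the 19 member IDR peaks and for all IDR peaks, on log axes. The strongest Keap1 and Gclc peaks lie close to the dashed line of equal rank, and the upstream Gclm peak, with ranks 10520 and 2218, lies far from it. Its replicate 2 rank is that of a peak also matched to the downstream Gclm summit.

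Consensus sequences were searched on both strands in 100 bp each side of the 19 member summits. GAGAGAG, bound by the GAGA factor, was in 6 windows (31.6%) of 5 members: Cat, Gclc, Gclm, GstD1 and GstS1. It was in 6.47% of all IDR windows, 6.74% of IDR windows near a TSS and 3.93% of windows at protein-coding start sites. The Gclc match was at the summit by the CG2258 start site, and 1 of the 2 GstS1 windows was at the summit by CG46491. At the strongest promoter summit of each of the 8 members it was in 3 windows, those of Cat, Gclm and GstD1. The nearest match lay 34 bp from the summit at Cat, 27 bp at Gclm and 29 bp at GstD1, where 5 matches, most of them overlapping, formed the runs printed in capitals above. The core of the antioxidant response element, TGACNNNGC, was in 0 of the 19 windows, against 5.14% of all IDR windows, where N is any base. TGACTCA (AP-1), CACGTG (E-box) and TATCGATA (DRE) were also in 0, against 2.08%, 2.42% and 3.25% of all IDR windows. TTGTTTAC (FOXO) was in 1 window, at GstS1, and GAANNTTC (heat shock element) in 1, at Keap1, against 3.39% and 4.83%. With 19 windows, a share of about 5% amounts to a single window.

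The antioxidant response element core did occur elsewhere in these genes. Over the 8 bodies with 2 kb each side there were 29 matches in 69360 bp, or 4.18 per 10 kb, against 3.34 per 10 kb over the main chromosome arms. Of the 29, 6 (20.7%) lay in a pooled peak and 0 in an IDR peak. Pooled peaks covered 28.7% of this sequence and IDR peaks 8.45%. The nearest to an IDR summit was 360 bp away at Cat. Taking the nearest match of each gene, Gclc came next with 413 bp. At Sod1, which had no IDR peak, 1 match lay within 100 bp of its strongest promoter summit in the pooled list.

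A wider list of the same defences, 84 genes, was read in the same way. Of these 35 (41.7%) had an IDR summit within 500 bp of a TSS, against 23.8% of protein-coding genes. Without the 8 members it was 29 of 76 (38.2%). In the body or within 2 kb it was 52 of 84 (61.9%), against 39.1%. By that rule neighbouring genes of a cluster can share a peak, as GstD9 and GstD1 did. Among the GstE genes 12 of 14 had a summit by that rule, against 5 of 14 within 500 bp of a TSS. Within 500 bp of a TSS, superoxide dismutase genes had 3 of 6, namely Sod2, Ccs (copper chaperone for Sod1, signal 122.9) and Sod3 (115.1). For removal of hydrogen peroxide it was 5 of 11. Next to Cat these were led by the peroxiredoxin genes Prx4 (signal 313.2, rank 846), Prx6a (295.1, rank 943) and Prx5 (114.0, rank 4321). In the group listed under the thioredoxin system it was 3 of 8. The strongest was at Sesn, the sestrin gene, which the list placed in this group. It had a signal of 1012 and rank 99, 225 bp upstream, and ranks 85 in replicate 1 and 128 in replicate 2. The thioredoxin gene Trx2 (rank 1759) and the thioredoxin reductase gene Trxr1 (rank 3847) followed. Of the 4 glutathione synthesis genes only Gclm had one.

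**Figure D4:**
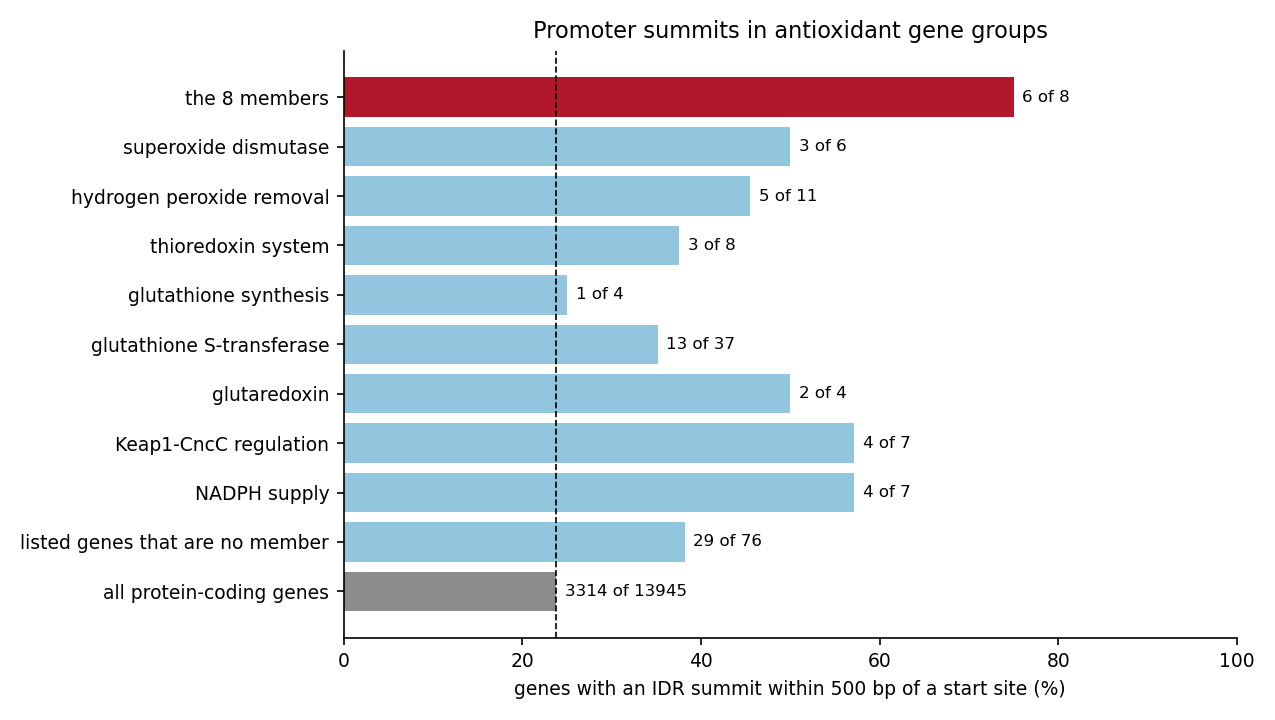
Genes of each group of the wider list with an IDR summit within 500 bp of a TSS, as a percentage of the group, above the bar of all protein-coding genes, whose 23.8% is drawn as a dashed line. The top bar is the 8 members (6 of 8), which are also counted in their groups. The groups hold 4 to 37 genes, so that in the smallest 1 gene moves the share by 25 percentage points.

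Glutathione S-transferases had 13 of 37. The strongest was GstE13, with a signal of 991.8 and rank 105, 63 bp downstream of the TSS, and ranks 92 in replicate 1 and 120 in replicate 2. Mgstl (rank 874), GstE12 (rank 1430) and GstT1 (rank 1938) came next. The GstE genes had 5 of 14 and the GstD genes 1 of 11. Glutaredoxins had 2 of 4, Grx3 (signal 222.0) and Grx1 (143.1). In the Keap1 and CncC group it was 4 of 7: cnc, which encodes CncC, with a signal of 332.0 and rank 766, maf-S, its small Maf partner, with rank 3574, Keap1, and fs(1)h, a bromodomain gene, with rank 4295. For NADPH supply it was 4 of 7: Men, malic enzyme, with rank 1413, Idh, isocitrate dehydrogenase, with rank 1503, the folate enzyme gene Nmdmc with rank 1739, and Men-b with rank 4822. For Prx6a, Grx3, maf-S, fs(1)h, Nmdmc and Men-b the summit was nearer to the start site of another gene. The Men-b peak ranked 26769 in replicate 1 and 1905 in replicate 2. Other named peaks outside the top 4867 of a replicate were those of Ccs (8509 in replicate 1 and 2084 in replicate 2) and Sod3 (3649 and 8771). The same held for Prx5 (3350 and 7762) and Grx1 (2078 and 5212).

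The genes whose best peaks had replicate ranks most like those of Gclc were CG2258, which has the same peak, Adk3, an adenylate kinase gene (ranks 187 in replicate 1 and 146 in replicate 2), and mam, the Notch coactivator gene mastermind (179 and 141). The likeness is a distance in log2 rank over 2 replicates and 10345 genes, 0.0983 for Adk3 and 0.110 for mam. At the edge of the 2 kb rule, the summits just inside were 1944 bp from Gclc (signal 205.1) and 1856 bp from Keap1 (313.8). The nearest outside were 3192 bp from GstS1 (signal 349.4, rank 706) and 3934 bp from Gclm (213.7, rank 1629).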

How the data were processed

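ChIP-seq peak lists on dm6 were used for 2 biological replicates of 1 group. Per the text deposited with the samples, the authors made a peak list for each replicate against 1 control alignment, a list for both replicates pooled, with that control again, and an IDR list from those 3. What aligned the reads, what called the peaks and where the IDR threshold was set is not given in the sources used here. The deposited signal of a peak is the authors' value, of unstated scale, and was used only for ranks within a list. The deposited −log10 q-value was not used, since it takes 1 value over the IDR list. Signal tracks were not used here. Of the 19 IDR summits at the members, 12 were the midpoint of their interval.

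All values were computed from these lists with Python 3.11.15, numpy 2.4.6, pandas 2.3.3 and matplotlib 3.10.9. Genes and start sites came from Ensembl's BDGP6 annotation, release 115. All 8 gene names matched, and 84 genes of the wider list matched, 80 by symbol and 4 by a RefSeq synonym, while 1 name did not. An overlapping replicate peak with the nearest summit was taken as the replicate's value. Motif windows came from the NCBI sequence of the same assembly. The procedure was tested on simulated summits.

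No test was made, as there is 1 group, and depth and hence sampling error are unknown. The members and lists were chosen with earlier results of these data known. The gene lncRNA:CR46015 is named as the start site nearest to the best replicate 1 peak of GstD1, beside the genes named by rule. Named genes are the members, genes with a start site within 500 bp of a member IDR summit, up to 4 genes of highest signal in each group of the wider list, the GstD neighbours of GstD1, and the 3 genes nearest to Gclc in replicate ranks. Alternatives were promoter distances of 250 and 1000 bp, canonical, protein-coding or nearest start sites only, flanks of 0, 1 and 5 kb, peak midpoints, any overlap by at least 1 bp, the higher-signal part of the lists, motif windows of 50 and 150 bp, and each replicate alone.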

Additional observations from a re-analysis of the deposited data

How the results depend on the processing

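With only the IDR peaks of higher signal, above the median, 3 of the 8 members kept a promoter summit and 18 genes of the wider list did, against 13.6% of protein-coding genes, and 9 IDR summits were left at the members. Counted in the gene body only, 4 members had an IDR summit, against 14.3% of protein-coding genes, and 7 summits were counted. With 50 bp each side, the antioxidant response element core was in the promoter summit window of 0 members, against 1 with 100 bp. With 150 bp the E-box was in 1, against 0. Canonical start sites alone gave 4 of 8, without Keap1 and GstS1, against 20.9% of protein-coding genes. From replicate 2 alone the strongest Sod1 summit lay at -672 bp, against 336 bp from replicate 1 alone, and the strongest Gclm summit at -71 bp, against 40 bp. The count of members with a promoter summit was 6 without replicate 1, against 24.1% of protein-coding genes, and 5 without replicate 2, which left out GstD1, against 22.5%. Causes were not tested. No paired analysis was possible because there is 1 group. Of the alternatives for counts, 51 stayed within 1.5 times, which includes motif counts that stayed at 0, and 7 did not. Of those for summit offsets, 15 stayed within the standard deviation of the replicate values, 7 moved farther and 2 changed sign.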
